A study of Mus musculus with 10 samples.

Results

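Papillary dermis fibroblast markers are genes that other work has used to mark fibroblasts of the upper dermis, the thin layer under the epidermis. The 7 listed genes, Crabp1, Prdm1, Entpd1, Lrig1, Cd9, Ptgs1 and Hspb3, were looked up by symbol among the 14995 genes of the deposited count table, and 6 of the 7 had a row. Hspb3, a small heat shock protein best known from muscle, had no row by symbol or gene number and is not analysed here. Bulk RNA sequencing covered 10 libraries made from sorted cells of mice: skin Ebf2+ cells (3 libraries), skin Ebf2- PαS cells (3 libraries) and bone marrow mesenchymal stem cells (4 libraries). Ebf2 is a transcription factor of mesenchymal cells, and the sources used here do not say how cells were recognised as Ebf2+.

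All populations were sorted as negative for CD45, TER119 and CD31, which mark leukocytes, erythroid cells and endothelial cells. The Ebf2- PαS cells were also selected for CD140a and Sca1, and the marrow cells for Sca1 and CD51. Skin was dorsal skin of FVB/N mice aged 8 to 12 weeks, and marrow came from C57BL/6 mice aged 8 to 10 weeks. No group carries a treatment in the labels, and marrow 1 to 3 are labelled as coming from an earlier study. Tissue, strain and sort differ together between skin and marrow, and for marrow 1 to 3 the study does too. Their parts in a skin-marrow difference cannot be told apart. The design text names 3 mice for skin and 4 for marrow, and p-values measure the spread between these libraries. The cells were sorted by surface markers and not by dermal layer, so no library stands for papillary dermis alone.

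The dermis is built by fibroblast lineages that part during development. Papillary fibroblasts lie next to the epidermis and take part in signalling to hair follicles, while reticular fibroblasts lie deeper and make thick collagen bundles. Crabp1 binds retinoic acid in the cytoplasm, and Prdm1 (also called Blimp1) is a transcriptional repressor that marks papillary precursors in embryonic mouse skin. Entpd1 (CD39) breaks down extracellular ATP and ADP, Lrig1 restrains growth factor receptors such as the EGF receptor, Cd9 is a tetraspanin that organises membrane proteins, and Ptgs1 (COX1) makes prostaglandin H2. Several of the 6 are also used outside the dermis: Lrig1 in epithelial stem cells, Cd9 in platelets, Entpd1 in leukocytes and vessels, and Prdm1 in lymphocytes and epidermis.

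Library totals were 9.83 to 13.0 M counts in the Ebf2+ libraries, 11.6 to 14.1 M in the Ebf2- libraries and 18.1 to 39.4 M in marrow. Levels are counts-per-million values (CPM) after TMM scaling. Fibroblast markers summed to 26411 to 126437 CPM, and 6 of 6 had reads in each group, so the label of mesenchymal cells was met in all 3. Keratinocyte markers summed to 19.9 to 988 CPM in the Ebf2+ libraries and 193 to 721 CPM in the Ebf2- libraries, against 1.001 to 5.53 CPM in marrow, where Krt14, Krt17 and Epcam were at 0. Leukocyte markers reached 1120 CPM in skin Ebf2- 2 and at most 69.4 CPM elsewhere. The skin libraries numbered 3 stood apart in ribosomal RNA: Rn45s took 0.170% and 0.593% of their counts and 3.04% to 12.5% of the counts in the other 8 libraries. Marrow 1 and 4 nearly coincided, at a chi-square of 3.27 per gene against 114 to 612 for the other pairs of one group. This is above sampling noise, and both were kept, but whether they are separate samples or 1 RNA measured again cannot be told from the files. The marrow group may therefore hold 3 independent samples, and tests with the counts of 1 and 4 summed are given beside the marrow results. With these 2 averaged, the marrow mean ± SD (n = 3) was 14.9 ± 8.35 CPM for Entpd1, 48.6 ± 24.4 CPM for Lrig1, 477 ± 47.9 CPM for Cd9 and 49.2 ± 27.0 CPM for Ptgs1.

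Levels per length of exon put Cd9 far above the other members in every group. Per kilobase of exon, the mean Cd9 level was 124.9 CPM in the Ebf2+ libraries, 123.0 CPM in the Ebf2- libraries and 227 CPM in marrow. The second highest mean was that of Ptgs1 in the Ebf2+ libraries (8.11 CPM per kilobase) and marrow (13.7), and that of Entpd1 in the Ebf2- libraries (12.6). In the Ebf2+ libraries the values of Ptgs1, Crabp1 (7.42), Entpd1 (6.64) and Lrig1 (5.76) lay close together. Prdm1 was lowest in both skin groups, at 0.901 and 0.316 CPM per kilobase, and in marrow Prdm1 (0.0116) and Crabp1 (0) took the last places. The members are thus a mixed set by level: 4 of them had reads in all marrow libraries, and 2 were at or near 0 there.

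**Figure D1:**
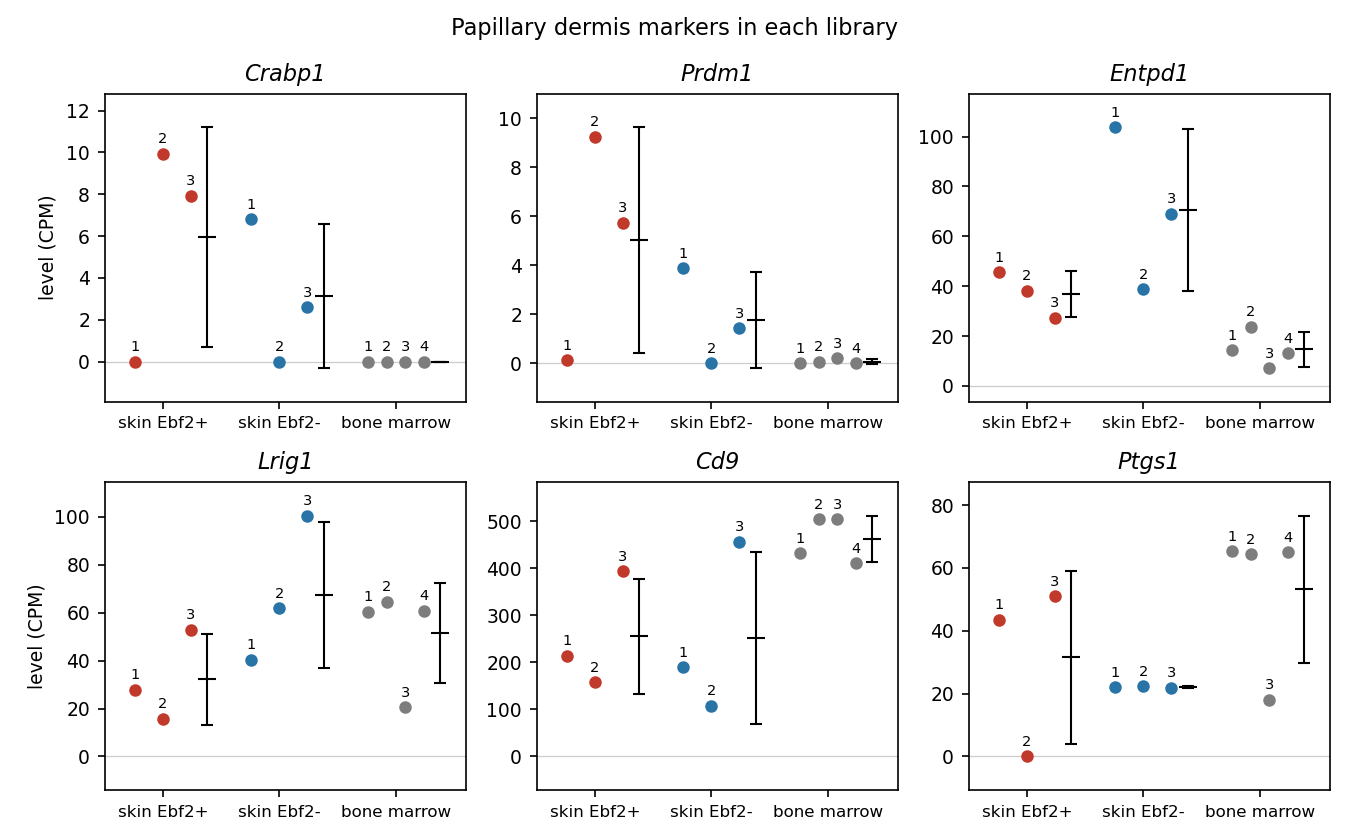
CPM of each of the 6 members (vertical axis, linear, a scale of its own per panel) in the 3 groups; points are libraries with their replicate number, and bars are the mean and SD. Crabp1 and Prdm1 were near 0 in skin Ebf2+ 1, skin Ebf2- 2 and all marrow libraries, and Cd9 stood at 411 to 505 CPM in marrow.

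Crabp1 (Entrez 12903, GRCm38 chromosome 9, 54764748 to 54773110) was read in 4 of 6 skin libraries and in no marrow library. Its level was 0, 9.93 and 7.92 CPM in skin Ebf2+ 1, 2 and 3, from 0, 114 and 101 reads. In skin Ebf2- 1, 2 and 3 it was 6.80, 0 and 2.59 CPM, from 93, 0 and 33 reads. The skin groups overlapped fully, each with 1 library without reads, and the 4 marrow libraries held 0 reads. In the libraries at 0, skin Ebf2+ 1 and skin Ebf2- 2, a count of 0 allows up to 0.349 and 0.207 CPM (3 counts, counting error only), well under the other skin libraries. Mean levels were 5.95 ± 5.25 CPM (SD, n = 3), 3.13 ± 3.43 CPM (n = 3) and 0 (n = 4). Against a floor of 3 counts over the marrow group, Crabp1 was at least 187-fold higher in the Ebf2+ libraries and at least 98.3-fold higher in the Ebf2- libraries, from group means that each hold a library at 0.

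Prdm1 (Entrez 12142, chromosome 10, 44437174 to 44528558) went with Crabp1 from library to library. Its level was 0.116, 9.24 and 5.73 CPM in skin Ebf2+ 1, 2 and 3, from 1, 106 and 73 reads. In the Ebf2- libraries it was 3.88, 0 and 1.41 CPM, from 53, 0 and 18 reads. The low libraries were the same 2 as for Crabp1, and the other 4 skin libraries stood in the same order. In marrow Prdm1 had 0, 1, 7 and 0 reads, or at most 0.210 CPM. Means were 5.03 ± 4.60, 1.76 ± 1.96 and 0.0648 ± 0.0997 CPM (SD, n = 3, 3 and 4), and each pair of groups overlapped.

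Likeness of pattern was measured as the root mean square difference of log2 CPM (prior count of 2), each gene centred on its own mean, over the 10 libraries. Among 14519 genes the 3 nearest to Crabp1 were Cdh3, which encodes P-cadherin, an adhesion protein of epithelium and hair follicles (0.410), the chloride channel protein gene Clic6 (0.492) and the smooth muscle actin gene Actg2 (0.493). Prdm1 had rank 5 for Crabp1, at 0.695 against a median of 3.09 over all genes, and Crabp1 had rank 3 for Prdm1 after Aass, an enzyme of lysine breakdown (0.493), and Actg2 (0.655). These values describe 10 libraries that share sort and amplification within groups, while depth differed within groups. A pattern chosen after these values were seen, at most 0.3 CPM in skin Ebf2+ 1, skin Ebf2- 2 and marrow with at least 1 CPM in the other 4 skin libraries, was met by 9 of the 14995 genes (0.0600%), Crabp1 and Prdm1 included. Within the skin libraries alone, 44 genes (0.293%) met it. The other 7 genes with the full pattern were Aass, Actg2, Cdh3, Chmp4c, Clic6, Fgf13 and Zfyve28.

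**Figure D2:**
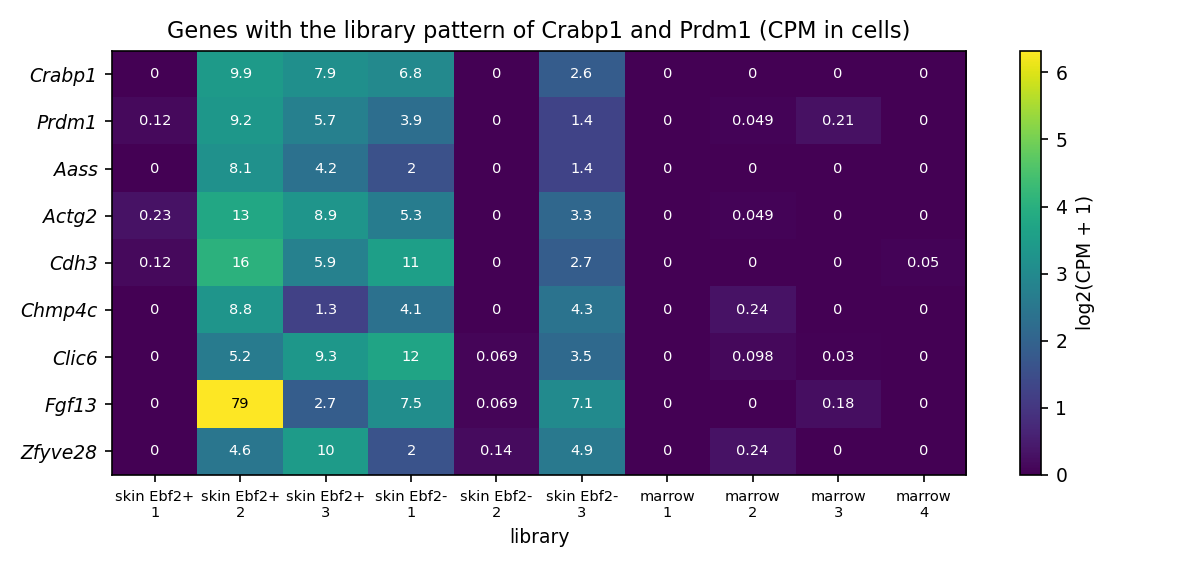
CPM (printed in the cells; colour is log2(CPM + 1)) of the 9 genes with the pattern of Crabp1 and Prdm1, by library. Skin Ebf2+ 1, skin Ebf2- 2 and the 4 marrow libraries hold at most 0.3 CPM of each, and Fgf13 reaches 79.0 CPM in skin Ebf2+ 2.

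Both genes are also known from dermal papilla cells and, for Prdm1, from lymphocytes and epidermis, so markers of those cells are given beside them. Dermal papilla markers, with 6 of 8 genes in the table, summed to 70.2, 54.8 and 138 CPM in skin Ebf2+ 1, 2 and 3 and to 56.2, 21.8 and 74.1 CPM in skin Ebf2- 1, 2 and 3. Hhip had the highest mean of these markers in both skin groups, at 78.8 CPM in Ebf2+ and 22.6 CPM in Ebf2-. Skin Ebf2+ 2 held the most Crabp1 and the lowest sum in its group. Skin Ebf2- 2 held no reads of Crabp1 and also had the lowest sum in its group. Corin, a protease of dermal papilla cells, was at 0, 0 and 2.82 CPM in skin Ebf2+ 1, 2 and 3. It stood at 10.97, 0.552 and 14.4 CPM in skin Ebf2- 1, 2 and 3, and at 0 in marrow. Keratinocyte markers, with 8 of 8 genes in the table, summed to 124, 19.9 and 988 CPM in the Ebf2+ libraries and 721, 193 and 503 CPM in the Ebf2- libraries. Skin Ebf2- 2, at 0 CPM for Crabp1 and Prdm1, was the library with 1120 CPM of leukocyte markers. The part of these cells in the pattern was not tested beyond these values, and in bulk RNA fewer cells of a type and less RNA per cell cannot be told apart. Skin Ebf2+ 1 also had 0 reads of 4 genes, of 4732, that stood at 10 CPM or more in all other libraries. Skin Ebf2- 2 had 0 such genes. The part of missing reads in the pattern was not tested.

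The promoters of the members were read from RefSeq (GRCm38.p6), 300 bases each, from 250 before to 50 after a transcript start, and 6 of 6 members matched, with 7 windows. Those of Crabp1 and Cd9 and the first of Entpd1 use the first base of the gene's span as the start, while the starts used lay 69810 bases inside the span for Prdm1, 13684 for Ptgs1, 47404 for the second Entpd1 window and 153 for Lrig1. Those of Crabp1 and Prdm1 are shown because the genes went together across libraries, and that of Cd9 because it was read in all 10. Capitals mark the GC box GGGCGG on either strand, and no 2 matches overlap.
Crabp1 promoter, chr9:54764498-54764797, + strand: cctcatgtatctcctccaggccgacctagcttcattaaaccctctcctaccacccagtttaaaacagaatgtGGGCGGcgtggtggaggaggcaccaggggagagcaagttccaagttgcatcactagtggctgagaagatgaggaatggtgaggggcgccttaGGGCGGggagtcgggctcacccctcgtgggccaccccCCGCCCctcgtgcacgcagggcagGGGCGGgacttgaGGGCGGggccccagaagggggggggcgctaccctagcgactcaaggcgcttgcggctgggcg
Prdm1 promoter (internal start), chr10:44458699-44458998, - strand: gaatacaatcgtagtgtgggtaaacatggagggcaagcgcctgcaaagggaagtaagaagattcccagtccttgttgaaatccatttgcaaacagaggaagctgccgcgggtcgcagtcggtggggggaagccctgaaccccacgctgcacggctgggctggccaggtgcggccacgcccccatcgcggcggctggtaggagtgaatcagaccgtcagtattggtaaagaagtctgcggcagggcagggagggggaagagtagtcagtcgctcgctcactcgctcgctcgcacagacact
Cd9 promoter, chr6:125494711-125495010, - strand: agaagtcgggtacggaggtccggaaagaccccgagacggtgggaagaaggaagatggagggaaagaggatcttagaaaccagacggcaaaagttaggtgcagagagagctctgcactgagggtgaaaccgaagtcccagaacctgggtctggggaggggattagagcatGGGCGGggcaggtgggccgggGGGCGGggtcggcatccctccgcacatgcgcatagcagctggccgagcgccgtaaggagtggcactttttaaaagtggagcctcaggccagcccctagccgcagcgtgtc
The Crabp1 promoter held 5 GC boxes and 17 CpG, that of Cd9 held 2 and 18, and the window at the internal start of Prdm1 held 0 and 20. Of 32851 promoters of this length, 35.7% held at least 1 GC box, and the median promoter had 7 CpG. Matches were also sought on both strands for TATAAA, held by 13.6% of promoters, CTTTGA (Lef/Tcf core, 16.0%), AGGTCA (nuclear receptor half-site, 16.3%) and the Ebf core CCCNNGGG (13.7%). None of these letters occurred in the windows of Crabp1, Prdm1 and Cd9. The Ebf core occurred once in the Lrig1 promoter and once in 1 of the 2 Entpd1 promoters. A match is a description of letters, and its absence says nothing of the factor.

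Entpd1 (Entrez 12495, chromosome 19, 40612366 to 40741602) was higher in each skin library than in each marrow library. Its level was 45.7, 38.2 and 27.3 CPM in the Ebf2+ libraries and 104, 38.7 and 69.0 CPM in the Ebf2- libraries. In marrow it was 14.4, 23.8, 7.21 and 13.2 CPM. The lowest skin library stood above the highest marrow library, and the skin groups overlapped. Means were 37.0 ± 9.24, 70.5 ± 32.5 and 14.6 ± 6.86 CPM (SD, n = 3, 3 and 4). Skin Ebf2- 2, with 1120 CPM of leukocyte markers, had the lowest Entpd1 level of its group. Endothelial markers, with 5 of 6 genes in the table, summed to 362, 43.9 and 304 CPM in the Ebf2+ libraries. They summed to 158 to 206 CPM in the Ebf2- libraries and 35.9 to 76.1 CPM in marrow. The sums were thus higher in 5 of 6 skin libraries than in marrow, but the genes differed. Against marrow, 5 of 5 had a positive log2 fold change in the Ebf2+ libraries and 2 of 5 in the Ebf2- libraries. Tek had the highest means, 200, 160 and 52.6 CPM in the order Ebf2+, Ebf2- and marrow, while Pecam1 had 6.98, 1.02 and 4.31 CPM. The part of leukocytes and endothelial cells in the Entpd1 values was not tested. The nearest genes by pattern were Agtr1a, an angiotensin receptor (0.505), Gbp2, an interferon-induced GTPase (0.544), and Pcsk5, a proprotein convertase (0.545).

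Lrig1 (Entrez 16206, chromosome 6, 94604529 to 94700298) was read in all libraries, at 27.9, 15.7 and 52.9 CPM in the Ebf2+ libraries. It stood at 40.4, 61.8 and 100.4 CPM in the Ebf2- libraries and at 60.3, 64.6, 20.5 and 60.8 CPM in marrow. The order of means was skin Ebf2-, marrow and skin Ebf2+ (67.5 ± 30.4, 51.6 ± 20.8 and 32.2 ± 19.0 CPM; SD, n = 3, 4 and 3), and neighbours in it overlapped. In both skin groups the library numbered 3 was highest. Keratinocyte markers were highest in number 3 within skin Ebf2+ and in number 1 within skin Ebf2-. In marrow these markers stayed at or under 5.53 CPM, with Lrig1 at 20.5 CPM in marrow 3 and 60.3 to 64.6 CPM in the other 3. The part of keratinocytes in the Lrig1 values was not tested. Lrig1 overlaps Slc25a26 on the other strand. The sources used here do not say whether the counting used strand, so reads from where these genes overlap cannot be told apart. The genes nearest to Lrig1 were Zfp740 (0.327), Vps9d1 (0.356) and Pnpt1 (0.383).

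Cd9 (Entrez 12527, chromosome 6, 125460266 to 125494760) had the highest level of the members and was highest in marrow. It stood at 214, 158 and 393 CPM in the Ebf2+ libraries and 190, 108 and 457 CPM in the Ebf2- libraries. Marrow held 432, 505, 505 and 411 CPM. All skin Ebf2+ libraries lay under all marrow libraries, while skin Ebf2- 3 lay inside the marrow range. Means were 255 ± 123, 251 ± 183 and 463 ± 48.7 CPM (SD, n = 3, 3 and 4). In both skin groups number 3 was again the highest, at 393 and 457 CPM, and these are the libraries with little Rn45s. Platelet markers, of which 2 of 5 had a row and Pf4, Ppbp and Gp9 had none, summed to at most 19.5 CPM in any library. Gm26728 overlaps it on the other strand. The nearest genes were Csgalnact2, an enzyme of chondroitin sulphate chains (0.237), the scavenger receptor Colec12 (0.270) and the glycoprotein gene Gpnmb (0.271).

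Ptgs1 (Entrez 19224, chromosome 2, 36216742 to 36258593) had no reads in 1 library and stood at 18.0 to 65.3 CPM in the other 9. It stood at 43.5, 0 and 51.1 CPM in the Ebf2+ libraries, from 374, 0 and 651 reads. In the Ebf2- libraries it was 21.9, 22.4 and 21.9 CPM, the smallest SD of the 6 members in that group, and in marrow 65.3, 64.3, 18.0 and 65.1 CPM. Skin Ebf2+ 2 was thus without reads where the floor of 3 counts lay at 0.261 CPM. Means were 31.5 ± 27.5, 22.1 ± 0.258 and 53.2 ± 23.4 CPM (SD, n = 3, 3 and 4), and all groups overlapped. Without skin Ebf2+ 2 the log2 difference of skin Ebf2+ from skin Ebf2- was 1.06 ± 0.58 (SE; edgeR adjusted p = 0.999982), against 0.51 ± 1.44 with it. The gene overlaps Gm43621 on the other strand.

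Other genes were missing from the same library. Skin Ebf2+ 2 had 0 reads of 12 genes that stood at 10 CPM or more in all other 9 libraries, out of 4891 such genes. Ptgs1 was one of the 12, and Aldh1a3, a retinoic acid-forming enzyme named after its values were seen, another. Skin Ebf2+ 1 had 4 such genes of 4732, and each of the other 8 libraries had 0. The genes nearest to Ptgs1 by pattern were Ppox (0.511), Gm7334 (0.532) and Btg3 (0.565), all of them at 0 CPM in skin Ebf2+ 2. Skin Ebf2+ 2 and 1 also had reads of the fewest genes, 12476 and 12754, against 12963 to 14641 elsewhere. The part of this in the Ptgs1 value was not tested.

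**Figure D3:**
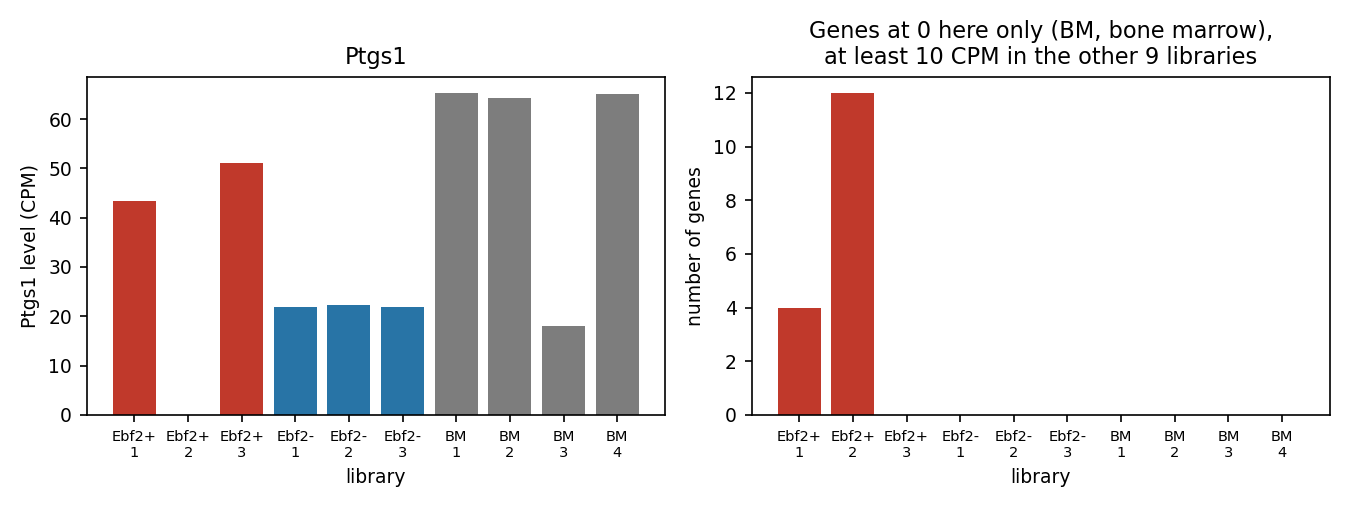
Left, Ptgs1 level in CPM by library; right, the number of genes with 0 reads in that library and at least 10 CPM in each of the other 9 (BM, bone marrow). Skin Ebf2+ 2 holds 0 CPM of Ptgs1 and 12 such genes, skin Ebf2+ 1 holds 4, and the other 8 libraries hold 0.

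The comparison within skin asked whether Ebf2+ and Ebf2- PαS cells differ in these markers. None of the 6 passed edgeR's quasi-likelihood test (adjusted p = 0.999856 for each), and the background was 0.0% of 13477 genes, with 343 genes at an unadjusted p under 0.05. DESeq2 also called 0 of the 6 (background 0.861%), the fit with the replicate number as a block 0 (0.0594%) and the authors' deposited table none (0.931%). The log2 fold change of skin Ebf2+ over skin Ebf2- was -1.07 ± 0.67 for Lrig1 (SE; interval of 2 SE from -2.41 to 0.26) and -0.93 ± 0.60 for Entpd1 (-2.14 to 0.28). It was 1.504 ± 1.98 for Prdm1 (-2.46 to 5.46) and 0.92 ± 2.07 for Crabp1 (-3.22 to 5.07). For Ptgs1 it was 0.51 ± 1.44 (-2.38 to 3.39). For Cd9 it was 0.02 ± 0.68 (-1.34 to 1.39), so a difference of more than 2-fold either way was still inside the interval. No member's skin groups were free of overlap, while over all genes skin Ebf2+ stood wholly above skin Ebf2- for 3.0% and wholly below for 3.72%, or 6.72% either way. Summed mural cell markers (pericytes and smooth muscle), with 8 of 8 genes in the table, did not overlap between the skin groups. They stood at 693 to 3616 CPM in the Ebf2+ libraries and 42.3 to 117 CPM in the Ebf2- libraries. By edgeR 0 of these 8 genes passed within skin, and their part in the members' values was not tested. Of the 6 members 4 had a positive log2 fold change, with a median of 0.26 against 0.01 over all genes.

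The comparisons with marrow asked which of these markers set skin mesenchymal cells apart from those of marrow, and they share the 4 marrow libraries. None of the 6 members passed edgeR's test in either. The background was 0.923% of 14520 genes for skin Ebf2+ and 0.73% for skin Ebf2-. Closest to the threshold was Entpd1 in the Ebf2- libraries, at 2.27 ± 0.56 on the log2 scale (SE; adjusted p = 0.0905 by edgeR, and 0.245 with marrow 1 and 4 summed). In the Ebf2+ libraries Entpd1 had 1.34 ± 0.55 (adjusted p = 0.277, summed 0.540, and 0.130 to 0.621 over 18 alternatives). Crabp1 had fitted values of 9.65 ± 2.74 in the Ebf2+ libraries (adjusted p = 0.141, summed 0.272) and 8.72 ± 2.64 in the Ebf2- libraries (0.197, summed 0.350), which depend on the prior count because marrow is at 0. Prdm1 had 6.06 ± 2.19 (adjusted p = 0.206, summed 0.423) and 4.56 ± 2.05 (0.395, summed 0.716, and 0.187 to 0.727 over 17 alternatives). For Cd9 the values were -0.86 ± 0.53 (adjusted p = 0.498, summed 0.684) and -0.88 ± 0.53 (0.560, summed 0.801). Without the skin libraries numbered 3 they became -1.31 ± 0.35 and -1.64 ± 0.36, with adjusted p = 0.0839 and 0.0924 by edgeR. These are the lowest over the 18 alternatives for Cd9, which reached 0.823 and 0.832. Lrig1 had -0.68 ± 0.59 and 0.39 ± 0.58, and Ptgs1 had -0.76 ± 1.15 and -1.27 ± 1.17, with adjusted p of 0.653 or more for the 4 values. Of the 8 keratinocyte markers, 6 and 5 passed as higher in the Ebf2+ and Ebf2- libraries (1 each with marrow 1 and 4 summed). Of the 8 mural markers, Myh11, Acta2 and Tagln passed as higher in the Ebf2+ libraries. Of the leukocyte markers, Cd74 passed as higher in the Ebf2- libraries. With marrow 1 and 4 summed, 0 mural and 0 leukocyte markers passed. The part of these cell types in the members' values was not tested.

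Members without overlap were Entpd1, higher in both skin groups, and Cd9, lower in the Ebf2+ libraries. Over all genes, skin Ebf2+ stood wholly above marrow for 6.07% and wholly below for 7.66%, and skin Ebf2- stood wholly above for 9.46% and wholly below for 9.27%. For skin Ebf2+ against marrow, 3 of the 6 members had a positive log2 fold change, with a median of 0.33 against 0.09 over all genes. For skin Ebf2- it was 4 of 6, with a median of 1.33 against 0.06.

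The choice of tool moved the calls of 3 members. DESeq2 called Crabp1 (adjusted p = 0.00368, range over 17 alternatives 0.00368 to 0.601) and Prdm1 (0.0317, range 0.0317 to 0.596) higher in the Ebf2+ libraries than in marrow, where its background was 7.61% of genes. In the Ebf2- libraries it called Crabp1 (0.0135, range 0.0135 to 0.623) and Entpd1 (0.00266, range over 18 alternatives 0.00266 to 0.609), with a background of 5.47%. The authors' deposited table lists the same 4 as passing, with adjusted p of 0.00332 and 0.0283 in the Ebf2+ libraries and 0.0130 and 0.00247 in the Ebf2- libraries, where it lists 8.24% and 5.63% of genes. Limma-voom called none of the 6 in any comparison.

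**Figure D4:**
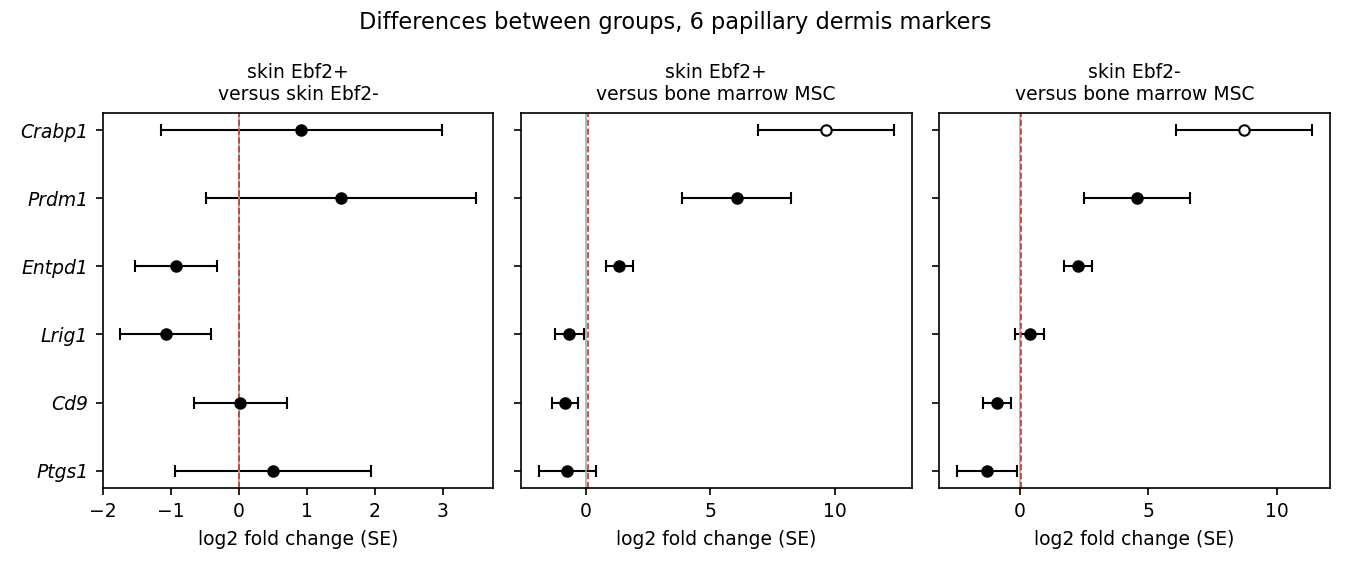
Log2 fold change (horizontal axis; bars are 1 SE, from edgeR) of each member in the 3 comparisons, with a horizontal scale of its own per panel; the dashed line is the median over all genes, and open points have 0 reads in the second group. Entpd1, Prdm1 and Crabp1 lie on the skin side in both marrow comparisons, and no member passed.

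Other genes used for the papillary layer had log2 fold changes of both signs. Of 12 listed, 11 had a row, and within skin 0 of 11 passed. In the Ebf2+ libraries against marrow 0 of 11 passed, with 6 positive, while against marrow the Ebf2- libraries had 1 that passed, also with 6 positive. It was Apcdd1, a membrane-bound Wnt inhibitor of the papillary dermis. It stood at 43.3, 17.3 and 50.4 CPM in the Ebf2+ libraries and 216, 151 and 314 CPM in the Ebf2- libraries, against 6.998, 2.34, 15.9 and 8.81 CPM in marrow. The 3 groups did not overlap, and Apcdd1 rose in the Ebf2- libraries over marrow by 4.74 ± 0.67 on the log2 scale (SE; adjusted p = 0.00593 by edgeR, 0.0218 with marrow 1 and 4 summed). It passed in 17 of 18 alternatives, all but that of marrow 4 alone (0.489; lowest 6.24e-11). Between the skin groups the log2 fold change was -2.62 ± 0.64 (adjusted p = 0.873), and DESeq2 called it (0.0152, range over 15 alternatives 0.0152 to 0.999982). Within skin, 4 of the 11 had a positive log2 fold change of Ebf2+ over Ebf2-. Ntn1, a guidance protein with the highest mean CPM of the list over the 10 libraries (not within either skin group), had its highest level in marrow, at 63.2 ± 49.99, 158 ± 67.8 and 426 ± 89.8 CPM (SD in the order Ebf2+, Ebf2- and marrow). The log2 fold change of skin Ebf2+ against marrow was -2.75 ± 0.61 (SE; adjusted p = 0.0592 by edgeR), and 3 of 18 alternatives called it, among them DESeq2 (0.000257) and the fit without skin Ebf2+ 1, the library at 118 CPM (range 0.000257 to 0.499).

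Among genes outside the naming rule, chosen after their values were seen, Rspo1, a secreted enhancer of Wnt signalling, stood at 0.465, 32.6 and 26.0 CPM in the Ebf2+ libraries, 93.9, 49.0 and 103 CPM in the Ebf2- libraries and at most 3.95 CPM in marrow. The skin groups did not overlap, and neither did skin Ebf2- and marrow (log2 fold change 5.59 ± 1.40, adjusted p = 0.0925 by edgeR, and 0.000177 to 0.489 over 18 alternatives). Lef1, a transcription factor of Wnt signalling that T cells use as well, had 38.05 CPM in skin Ebf2- 2 and at most 2.43 CPM in the other skin libraries. That library held 708 CPM of the T cell gene Cd3e, while marrow 3 held 8.68 CPM of Lef1 and 0 of Cd3e. The part of T cells in the Lef1 values was not tested.

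Genes of the reticular dermis and hypodermis had a row for 9 of 10 listed. Within skin 0 of 9 passed, with 8 positive, against 50.4% positive over all genes. Cnn1, named after its values were seen, had the largest log2 fold change of the list within skin, 5.79 ± 1.37 (SE; edgeR adjusted p = 0.873). Its means were 44.6 CPM in the Ebf2+ and 0.796 CPM in the Ebf2- libraries. The part of mural cells in the Cnn1 values was not tested. Plac8 passed in both marrow comparisons, and the other 8 did not. It stood at 35.9, 26.3 and 71.5 CPM in the Ebf2+ libraries and 33.7, 34.5 and 48.1 CPM in the Ebf2- libraries, against at most 1.77 CPM in marrow, with no overlap between skin and marrow. It rose by 5.69 ± 0.81 in the Ebf2+ libraries and 5.49 ± 0.80 in the Ebf2- libraries on the log2 scale (SE; adjusted p = 0.00739 and 0.00653 by edgeR, or 0.0265 and 0.0211 with marrow 1 and 4 summed). Each call held in 17 of 18 alternatives and was lost against marrow 4 alone (0.411 and 0.394; lowest 4.61e-13 and 3.64e-12). The median log2 fold change within skin was 0.31 for this list, 0.26 for the 6 members and -0.10 for the other papillary genes, and differences between the lists were not tested.

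**Figure D5:**
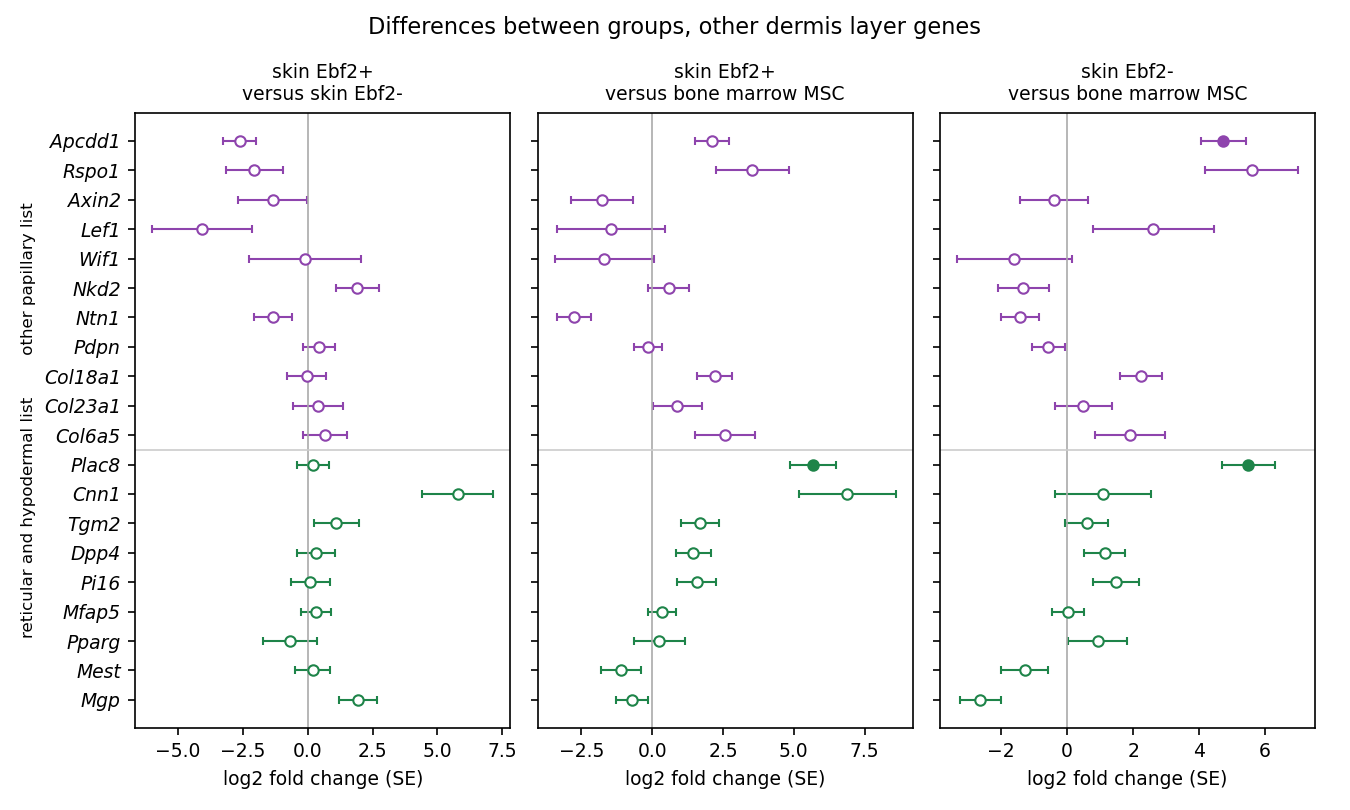
Log2 fold change (horizontal axis; bars are 1 SE, from edgeR) of 11 other papillary genes and 9 reticular or hypodermal genes in the 3 comparisons; filled points passed at an adjusted p of 0.05. Apcdd1 passed in the Ebf2- libraries against marrow and Plac8 in both marrow comparisons.

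The pathways of single members were followed through lists of related genes. Around Crabp1, 16 retinoid genes were in the table and 14 were tested within skin, where 0 passed. Cyp26b1, which degrades retinoic acid and had the highest mean CPM of the list over the 10 libraries (not within Ebf2+ or marrow, and not scaled by length), stood at 53.0, 31.5 and 8.00 CPM in the Ebf2+ libraries and 349, 517 and 45.3 CPM in the Ebf2- libraries, with an overlap (log2 fold change -3.30 ± 1.01, SE; edgeR adjusted p = 0.999856). Dhrs3, which reduces retinaldehyde, fell in the Ebf2- libraries against marrow by 2.56 ± 0.53 on the log2 scale (SE; adjusted p = 0.0480 by edgeR). It passed in 5 of 18 alternatives (9.41e-05 to 0.489), and leaving out any 1 of the 7 libraries of these groups ended the call (0.0600 to 0.213), as did the replicate block (0.1104) and marrow 1 and 4 summed (0.132). Its level was 23.5 ± 7.17 CPM against 139 ± 61.9 CPM (SD), and no other gene of the list passed.

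Around Ptgs1, 12 of 14 prostaglandin genes had a row. Ptges, which makes prostaglandin E2 from the product of Ptgs1, stood at 264, 265 and 198 CPM in the Ebf2+ libraries, 81.1, 92.9 and 153 CPM in the Ebf2- libraries and 35.8 to 45.1 CPM in marrow, with no overlap between the 3 groups. It rose in the Ebf2+ libraries over marrow by 2.58 ± 0.41 on the log2 scale (SE; adjusted p = 0.0121 by edgeR, and 0.0599 with marrow 1 and 4 summed). It passed in 13 of 18 alternatives (1.19e-08 to 0.489), and not without marrow 1 (0.0609), without marrow 4 (0.0595) or with the replicate block (0.0558). Ptgs2, the inducible cyclooxygenase, had means of 204, 179 and 192 CPM in the order Ebf2+, Ebf2- and marrow. No other gene of this list passed.

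Around the surface proteins, no gene passed in any comparison among 12 genes of extracellular purine handling, 7 LRIG and receptor genes and 12 tetraspanins. Entpd2, the relative of Entpd1 that removes a phosphate from ATP, had the highest mean CPM of its list over the 10 libraries (384, 280 and 307 CPM in the order Ebf2+, Ebf2- and marrow). Egfr, a receptor that Lrig1 restrains, stood at 478, 491 and 405 CPM, and the tetraspanin Cd81 at 920, 754 and 853 CPM. None of 8 Prdm genes and 7 small heat shock genes passed either. Their highest mean CPM values over the 10 libraries were those of Prdm2 (68.0, 90.7 and 204 CPM) and Hspb8 (270, 293 and 368 CPM).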

How the data were processed

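RNA was measured by SMART-Seq v4 cDNA amplification and 75 bp single-end sequencing, per the labels' protocols. The submitters' processing notes name STAR 2.6.1d, featureCounts, DESeq2, FastQC 0.11.8 and MultiQC 1.7, and the build GRCm38. The deposited counts are whole numbers per Entrez gene and library. The lowest gene total was 21 and each gene had reads in at least 3 libraries, so some filter had been applied, which the sources used here do not describe. The authors' deposited log2 fold changes and adjusted p-values are quoted as theirs. The 10 columns of normalized counts were not used. Columns were given to samples by population name, reading the number after S as the replicate number and the skin columns not named PAS as Ebf2+, a link that no label states. Spreadsheet dates had replaced 18 symbols, none of them a member's.

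Counts were tested with edgeR 4.0.16 (R 4.3.3; TMM, filterByExpr, quasi-likelihood, Benjamini-Hochberg over all genes tested, threshold 0.05), within the 6 skin libraries for the skin comparison and in a fit of all 10 for the marrow comparisons. SE is the log2 fold change over the root of F. A floor is 3 counts. Floors cover counting error only, since PCR copies were counted as reads. The code was tested on simulated counts. DESeq2 1.42.0, limma 3.58.1 (voom), other scalings and filters, left-out libraries and a replicate block were alternatives. Gene positions and promoters are from RefSeq GRCm38.p6, and exon lengths from GENCODE.

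The members and lists were chosen with earlier results of these data known. Named were the members, up to 2 passing genes each way per list or its highest gene, and the 3 genes nearest to each member. Deviations from the group mean correlated across genes between skin libraries of equal number (r = 0.187, 0.226 and 0.610), each above 0.1, as did the unequal pairs of numbers 1 and 2 (0.147 and 0.154). The design text names 3 mice for skin, so both skin groups may come from the same mice. The labels do not state pairs, so the main tests used none and took the skin libraries as independent. The replicate block served as an alternative.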

Additional observations from a re-analysis of the deposited data

Results flagged for a closer look

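In marrow 3, Lrig1 stood at 20.5 CPM against 60.3 to 64.6 CPM in the other 3 marrow libraries, a gap of 0.903 of the group's range. Ptgs1 stood at 18.0 CPM in the same library against 64.3 to 65.3 CPM, a gap of 0.980 of the range. Both were singled out because the lowest library lay farther from the rest than Dixon's 95% critical value for 4 libraries, which chance passes in about 1 of 20 groups. Marrow 1 and 4 nearly coincided, which narrows the spread of the other 3 libraries. Without marrow 3 the log2 fold change of Lrig1 against marrow was -0.98 ± 0.55 in skin Ebf2+ and 0.12 ± 0.55 in skin Ebf2- (SE). That of Ptgs1 was -1.08 ± 1.24 and -1.55 ± 1.25, and none of the 4 passed by edgeR.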

How the results depend on the processing

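Of 302 values of the members under other settings, 290 kept their direction and their side of the threshold, 4 passed only under DESeq2 and 8 turned direction. The skin difference of Ptgs1 (0.51) became -2.34 under limma-voom, -0.0378 without the skin libraries numbered 3 and -0.45 with the replicate block, and ran from -0.00465 to 1.06 with single libraries left out. The skin difference of Cd9 (0.02) ran from -0.38 to 0.78 with single libraries left out. That of Lrig1 in skin Ebf2- against marrow (0.39) became -0.0119 without the skin libraries numbered 3. The cause of these turns was not tested. The 0 members called became 2 under DESeq2 in each marrow comparison. In the fit of the compared groups alone, Crabp1 and Prdm1 had no test against marrow.

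Counts over all genes moved more. Within skin, 0 genes became 116 under DESeq2 and 8 with the replicate block, and stayed 0 with each library left out. For skin Ebf2+ against marrow, 134 became 1105 under DESeq2, 223 under limma-voom, 237 without the skin libraries numbered 3, 64 with the replicate block, 51 with marrow 1 and 4 summed, 1 against marrow 4 alone and 76 in a fit of these groups, and ran from 44 to 200 with single libraries left out. For skin Ebf2- against marrow, 106 became 794, 293, 66, 47, 2 and 262 under DESeq2, limma-voom, the block, marrow 1 and 4 summed, marrow 4 alone and a fit of these groups, and ran from 34 to 58. The fit against marrow 4 alone takes its spread from the skin groups. The replicate block changed no member's call. The list genes followed through the settings were Apcdd1, Cyp26b1, Ntn1, Plac8, Ptges, Dhrs3 and Rspo1. Among these genes the block ended the calls of Dhrs3 and Ptges, and no log2 fold change turned direction. Calls of the cell type markers against marrow were not followed under the block. The skin levels of Crabp1 and Prdm1 rest on at most 114 reads a library. Skin Ebf2- 2, with 0 reads of both, was the deepest skin library, at 14.1 M counts. The other low skin library, skin Ebf2+ 1, had the lowest total of all libraries, at 9.83 M. It held 0 reads of Crabp1 and 1 of Prdm1, against 101 and 73 in skin Ebf2+ 3 at 9.9 M. The part of depth in these counts was not tested.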
